A study of Homo sapiens with 3 samples.

Results

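Ribosome peaks of cells given wild-type DDX3X were set against those of cells given empty vector, gene by gene. All 31139 rows of the 2 lists were used, 19920 from wild-type DDX3X and 11219 from vector, of 46819 peaks in the series as a whole. Each peak was counted for the gene whose RefSeq transcript its annotation named, which gave 3279 genes. The cells were HEK293T, a transformed human embryonic kidney line that grows as an adherent culture. They were transfected for 24 h with empty pCDNA3.1 vector or with a plasmid for FLAG-tagged WT DDX3X, and the third construct of the series, FLAG-tagged DDX3X G325E (15680 peaks), is given here only beside these values. All groups kept their own endogenous DDX3X. Ribo-seq sequences the mRNA fragments that a ribosome shields from nuclease, and a peak is a stretch where the authors found such fragments piled up. The labels give harringtonine (2 µg/ml, 90 s), which holds ribosomes that have just initiated, and then cycloheximide (100 µg/ml), which stops elongating ones, whereas the study's methods name cycloheximide alone. There was 1 library per construct. No test against replicate error was possible, so folds and shares below carry intervals that cover counting error alone (peaks are not independent molecules), and a difference between the lists is a difference between 2 libraries.

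DDX3X is a DEAD-box RNA helicase, an enzyme that uses ATP to open RNA structure and strip proteins from RNA. It takes part in translation initiation, where scanning ribosomes must pass structured leaders before they reach a start codon, and it is found in stress granules, the cytoplasmic bodies that hold stalled initiation complexes. Medulloblastoma tumours carry missense changes in it. The comparison with vector asks which messages gain or lose ribosome peaks when more of the normal protein is made.

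The lists held positions only, without heights or read counts. A gene's value is thus its number of peaks, and read depth cannot be computed from the lists. By the study's methods a peak was called only where coverage reached a fixed cut-off. A gene with 0 peaks therefore had none called, which need not mean that it held no ribosomes. The study's supplement lists more non-duplicated mapped reads for wild-type than for vector and fewest for G325E, whose list is longer than that of vector, and the part of depth in the longer wild-type list was not tested. Median peak length was 29 bp in both lists. Peak numbers ran on to 13171 in vector with 1952 skipped (14.8%) and to 23019 in wild-type with 3099 skipped (13.5%), and 0 were skipped in G325E. The labels call the cells neuronal. Of 23 neuronal marker genes, 3 had a vector peak and 4 a wild-type peak, namely NEFM, NEFL, TUBB3 and, in wild-type alone, UCHL1, and the defining markers RBFOX3, MAP2, SYN1 and SNAP25 had none. Of 14 epithelial and embryonic kidney markers, 1 (VIM) had a vector peak and 5 a wild-type peak. Exon peaks lay on the strand opposite to their gene in 3.63% of cases in vector and 3.58% in wild-type. Peaks of the annotation's TTS class (around a transcript's end) did so in 66.5% and 63.9%, and those of its promoter-TSS class (around a transcript's start) in 39.9% and 41.5%, so the host gene of peaks in these classes is uncertain where genes sit back to back.

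The sequences under the peaks that set the lists apart are shown before the numbers. Each is the central 30 nt, in GRCh37 and 5′ to 3′ on the strand of the gene, of the longest peak of that gene that met no peak of the other list. Exon numbers are those of the peaks' own RefSeq annotation, and the capitals mark the codon at the centre of the peak in the reading frame of the GENCODE canonical transcript. The opening set comes from genes with many wild-type peaks and no vector peak, shown because they carry the main finding below.
FASN, exon 23 of 43, codon 1287, chr17:80043605-80043634, minus strand: tgcccaggccgagCTGcagcagcacgacgt
AKAP12, exon 2 of 3, chr6:151670484-151670513, plus strand: gaagtggaagcttcaGAGaagaaaaaggaa
DDX3X, exon 13 of 17, codon 478, chrX:41205583-41205612, plus strand: ggagaccgttctcagAGGgatagagaagag
EDC4, exon 1 of 29, codon 5, chr16:67907162-67907191, plus strand: cccatggcctcctgcGCGagcatcgacatc
OS9, exon 11 of 13, codon 512, chr12:58112886-58112915, plus strand: acagagtccagagCTGgtgaagaagcacaa
GAPDH, exon 7 of 8, codon 273, chr12:6647027-6647056, plus strand: gccccctcaagggcATCctgggctacactg
The next set comes from genes with 1 or 2 vector peaks and many in wild-type.
PSMC4, exon 4 of 11, codon 137, chr19:40480272-40480301, plus strand: ctccacaagcacagcAATgcactggtggac
MAP4, exon 7 of 19, codon 589, chr3:47957537-47957566, minus strand: caacaccagttccaATTaaagacatggaaa
The last set comes from vector peaks of genes that had no wild-type peak, and in MRFAP1L1 the marked codon is the annotated start.
PSRC1, exon 6 of 8, codon 291, chr1:109823417-109823446, minus strand: caagaccaagcactGCAggacacagagtgc
RAB13, exon 5 of 8, codon 129, chr1:153955207-153955236, minus strand: atggaggccaagAGGaaggtgcagaaggag
MRFAP1L1, exon 1 of 2, codon 1, chr4:6711339-6711368, minus strand: cggcaggaggagATGcggcccctggacata
GPX4, exon 3 of 7, codon 78, chr19:1105404-1105433, plus strand: aggcaagaccgaaGTAaactacactcagct
The centres of all 12 windows lie in coding sequence, and the windows of EDC4 and MRFAP1L1 begin upstream of the start codon. Their GC content runs from 36.7% (MAP4) to 70.0% (FASN).

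The lists differed first in which genes they held. Vector had peaks on 2108 genes and wild-type on 3172, and 2001 genes were in both. A further 1171 genes were in the wild-type list alone, which is 36.9% of its genes, and 107 were in the vector list alone, 5.08% of its genes. The genes of wild-type alone held 5723 peaks (28.7% of the list), and those of vector alone held 361 (3.22%). Wild-type had 8701 more peaks than vector, and the peaks on genes absent from vector came to 65.8% of that number. Among genes with at least 5 wild-type peaks, 501 of 1684 (29.8%) had no vector peak, whereas of 1002 genes with at least 5 vector peaks, 28 (2.79%) had no wild-type peak.

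On genes that were in both lists the scaled ratio was mostly the other way. A gene's ratio was its share of the wild-type list over its share of the vector list, so that equal shares give 1, and the list totals differ 1.78-fold. It was taken for the 1184 genes with at least 10 peaks over both lists, with a floor of 3 peaks where a list had 0. The median log2 ratio was −0.41 (quartiles −0.83 and 0.30), and over the 1066 of these genes with peaks in both lists it was −0.51, since the median such gene had 1.25 wild-type peaks for each vector peak. By this scale 154 genes (13.0%) were at least 2-fold higher in wild-type and 198 (16.7%) at least 2-fold lower. Setting the median gene of both lists to 1 in place of the totals moved these to 247 higher (20.9%) and 42 lower (3.55%), so the balance between the directions rests on the scale chosen. Of the 154 higher genes, 89 had no vector peak. Of the 198 lower ones, 3 had no wild-type peak. The 95% exact counting interval of the ratio lay above 1 for 100 of the higher genes and below 1 for 39 of the lower. For the 89 higher and 3 lower genes with 0 peaks in a list, the filter of 10 peaks fixed this in advance. Only for the 65 higher and 195 lower genes with peaks in both lists could the interval fall either way.

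**Figure D1:**
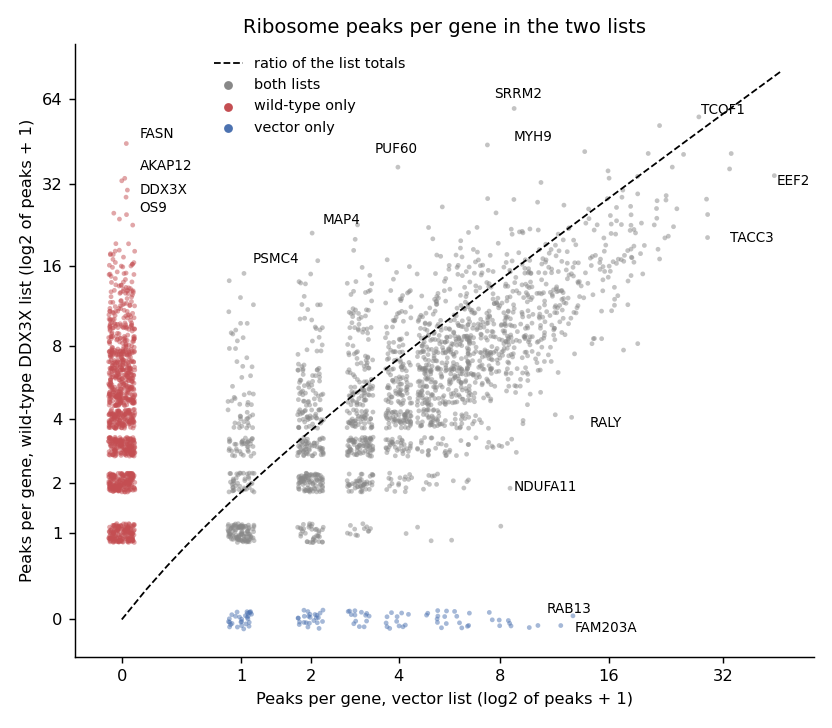
Each point is a gene (the mitochondrial genome is left out), placed by its number of peaks in the vector list (x axis) and the wild-type DDX3X list (y axis), both on a log2(peaks + 1) scale with a small random shift to part equal points; the dashed line is the ratio of the list totals. The column at 0 on the x axis holds the 1171 genes of wild-type alone, up to FASN at 45 peaks, and the row at 0 on the y axis the 107 genes of vector alone, up to FAM203A at 12, while most well covered genes of both lists lie below the line.

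Among the best covered genes, 0 vector peaks were more frequent than 1 to 3. Of the 223 genes with at least 15 wild-type peaks, leaving out the mitochondrial genome, 34 had 0 vector peaks, 8 had 1 to 3, 22 had 4 to 6 and 159 had 7 or more, with a median of 11. Of the 250 genes with at least 10 vector peaks, 3 had 0 wild-type peaks, 0 had 1 to 3, and the median was 14. Genes at 0 in vector made up 45.0% of those with 1 to 4 wild-type peaks (Wilson 95% interval 42.5 to 47.6, used for shares throughout), 34.9% of those with 5 to 9, 22.9% with 10 to 14, 18.7% with 15 to 19 and 10.1% (5.41 to 18.1) with 20 or more. With fewer wild-type peaks, low counts were frequent too, and 1 to 3 vector peaks were found on 590 genes against 670 at 0 in the group with 1 to 4 wild-type peaks, on 163 against 386 with 5 to 9 and on 43 against 81 with 10 to 14. Genes at 0 were found on all 23 chromosomes that had genes with at least 5 wild-type peaks, at 21.6% to 44.4% on the 20 chromosomes with at least 20 such genes. The next gene along a chromosome was also at 0 after 31.8% of 494 genes at 0, and after 28.8% of 1166 others, with intervals that overlap.

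FASN, the multi-domain enzyme that makes palmitate, had the most peaks of any gene absent from vector. It had 0 vector peaks, 45 wild-type and 31 G325E (chr17:80036214-80056112, minus strand, 43 exons), at least 8.45-fold higher in wild-type by share. Its 39 coding peaks ran from codon 643 to codon 2484. AKAP12, a scaffold that anchors protein kinases A and C, had 0 vector, 33 wild-type and 23 G325E peaks, at least 6.20-fold higher, and all 33 lay in exons. DDX3X, the gene carried by the plasmid, had 0 vector, 32 wild-type and 9 G325E peaks, at least 6.01-fold higher, from codon 25 to codon 647 (chrX:41193415-41209527, plus strand). Peaks from the plasmid and from the endogenous gene cannot be told apart, and 2 peak numbers were skipped in the vector list between the peaks that flank the locus. By peak number it came behind FASN and AKAP12 among genes absent from vector.

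The other genes at the head of this group had varied roles. SCRIB, a polarity scaffold, had 0 vector and 31 wild-type peaks, 11 of them in introns. EDC4, a core protein of mRNA decapping, had 0 and 28, with 2 in G325E. AP2A2, a subunit of the clathrin adaptor AP-2, had 0 and 25, OS9, a lectin of endoplasmic reticulum quality control, 0 and 25, and GAPDH, a glycolytic enzyme, 0 and 24. These 3 had 0 G325E peaks as well. CBX6, a Polycomb subunit, had 0 and 19. Against the floor of 3 vector peaks they were at least 3.57-fold (CBX6) to 5.82-fold (SCRIB) higher by share. No number was skipped in the vector list across FASN, AKAP12, SCRIB, EDC4, OS9 and CBX6, whereas 2 were skipped beside GAPDH and 7 beside AP2A2. Over the 501 genes, 377 sat beside no skipped vector number and 124 beside at least 1 (24.8%). Of all measured genes, which have at least 10 peaks over both lists, 51.7% sat beside a skipped vector number. A gene with vector peaks spans more vector numbers than a gene at 0, so these shares are not on an equal footing. Among higher genes the share was 23.6% for those at 0 in vector and 40% for those with peaks in both lists. The part of skipped numbers in the absences was not tested. In the third list, 222 of the 501 had a G325E peak and 279 had none, a split not set against all genes.

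Coding length went with absence from the vector list. Among the 1445 genes with at least 5 wild-type peaks and a canonical coding sequence (85.9% of them), those of up to 714 nt were at 0 in vector in 18.0% of cases (14.3 to 22.2), those above that and up to 1203 nt in 26.6%, those up to 1938 nt in 32.6% and longer ones in 43.3% (38.3 to 48.5). The median wild-type peak number was 7, 8, 9 and 9 in these groups. The ratio moved with length as well. In the shortest group of measured genes (75 to 684 nt) 4.30% were at least 2-fold higher and 19.5% lower, with a median log2 ratio of −0.57. In the longest (1908 to 12383 nt) 28.3% were higher and 14.96% lower, with a median of 0.01. This largely repeats the absences, since 89 of the 154 higher genes had no vector peak. The filter and floor place such genes near 2-fold higher or above in advance, and the groups were not measured without them. Higher genes with peaks in both lists had a median coding length of 1726.5 nt, against 1146 nt for all measured genes. The GC content of the 31 nt around a gene's peaks gave a flatter relation, with 26.8% at 0 in the lowest group and 38.5% in the highest.

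**Figure D2:**
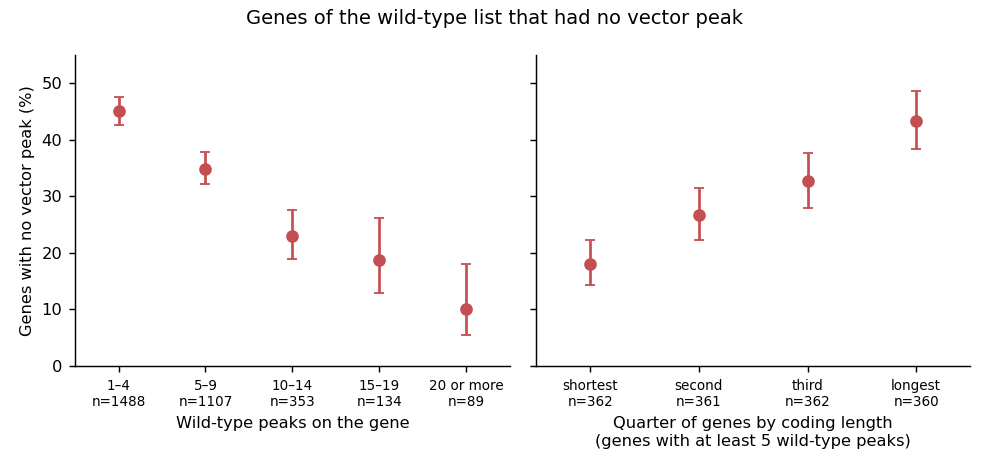
The y axis is the share of genes in the wild-type list that had no vector peak, with Wilson 95% intervals; genes are grouped by their number of wild-type peaks (left) and, for genes with at least 5, by coding length (right), with the number of genes under each point. The share falls from 45.0% to 10.1% with wild-type peak number and climbs from 18.0% to 43.3% with coding length.

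Among genes with peaks in both lists, the largest ratios came from genes with 1 or 2 vector peaks, and their intervals were wide. PSMC4, an ATPase subunit of the proteasome cap, had 1 vector, 15 wild-type and 0 G325E peaks, a scaled ratio of 8.45 (95% exact counting interval 1.30 to 356). CALD1 (caldesmon, an actin-binding protein) had 1 and 14, a ratio of 7.88 (1.20 to 333). MAP4, a microtubule-associated protein, had 2 and 21, a ratio of 5.91 (1.45 to 52.0). AGXT2L2 had 1 and 12, ACOT7, an acyl-CoA thioesterase, 1 and 11, and GNL2, HNRNPUL2 and MRPL21 each 1 and 10. DDX23, MRPL14 and PLS3 each had 1 and 9. For these 7 and AGXT2L2 the interval reached 1 or below. PUF60, a splicing factor, had 4 vector, 37 wild-type and 16 G325E peaks, a ratio of 5.21 (1.87 to 20.1).

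The better covered genes on this side were chosen after their values were seen. SRRM2, a large scaffold of the spliceosome and of nuclear speckles, had 9 vector, 58 wild-type and 5 G325E peaks, a ratio of 3.63 (1.79 to 8.33). MYH9, the heavy chain of non-muscle myosin IIA, had 8, 46 and 16, a ratio of 3.24 (1.51 to 7.94). AMOT, a regulator of Hippo signalling, had 5 and 27. NOC2L and MYBBP1A, both nucleolar, had 3 and 21, and 3 and 19. EIF3B, a scaffold subunit of the initiation factor eIF3, had 2 and 16, a ratio of 4.51 (1.06 to 40.4). In all, 11 genes with peaks in both lists were at least 2-fold higher with an interval above 1.

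On the lower side the genes held few wild-type peaks but seldom none. NDUFA11, a subunit of respiratory complex I, had 8 vector and 2 wild-type peaks, a scaled ratio of 0.141 (0.0146 to 0.706). RALY, an RNA-binding protein of the hnRNP C family, had 13 vector, 4 wild-type and 16 G325E peaks, a ratio of 0.173 (0.0412 to 0.561). SLC9A3R2, a PDZ scaffold, had 11 and 4. SNORA65, a small nucleolar RNA encoded within RPL12, had 9 and 3, and its peaks cannot be told apart from peaks of RPL12. Its place here rests on host naming, as its log2 ratio was −2.41 but −0.68 with names paired in the files alone. RAB26 had 10 and 4. GDF11, NID1, PPIE, SH3GL1, SOX4 and TM9SF3 each had 8 and 3. SOX4, a single-exon transcription factor gene, had 14 in G325E. C6orf108 had 7 and 3, with an interval (0.0403 to 1.06) that reached past 1.

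EEF2, the factor that moves the ribosome along by 1 codon, had 41 vector, 34 wild-type and 35 G325E peaks, 2.14-fold lower in wild-type by share (ratio 0.47, 0.29 to 0.75). It was among the 5 genes or loci with most peaks, with TCOF1 (26 and 53), IRS4 (21 and 49), the mitochondrial genome (96 and 79) and intergenic repeats nearest to OR4F3 (36 and 42), which near-identical copies make uncertain. TACC3, a spindle protein and here also chosen after its values were seen, had 31 and 22, a ratio of 0.40 (0.22 to 0.71). Of the 250 genes with at least 10 vector peaks, 100 had more peaks in vector than in wild-type without scaling. A filter on vector peaks favours that direction, and all genes of both lists together held 14197 wild-type and 10858 vector peaks.

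Genes present in vector alone were few and short of peaks. FAM203A had 12 vector peaks, PSRC1, a spindle-associated protein, 11, and RAB13, a GTPase of vesicle traffic, 10, and all 3 had 0 in wild-type and 0 in G325E. By share they were at least 7.10-fold, 6.51-fold and 5.92-fold lower in wild-type. MRFAP1L1 had 9. ADRB1, ARL6IP6, CYC1, FOXK1, GPX4 and PRAME had 8 each, and of these ADRB1 (13), FOXK1 (6) and GPX4 (7) had G325E peaks. GPX4 reduces lipid peroxides and CYC1 is a subunit of respiratory complex III. No wild-type number was skipped beside FAM203A, PSRC1, RAB13, ARL6IP6, CYC1 and FOXK1.

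Function lists lay on both sides of the all-gene median. Genes named here beyond the 4 that lead each list were chosen after their values were seen. The ratio of a list is its summed share of the wild-type list over that of vector, scaled to list totals, and the medians of lists are given relative to the all-gene median log2 ratio of −0.41. Over all measured genes 13.0% were at least 2-fold higher and 16.7% lower. A member at 0 in vector is measured through wild-type peaks alone. The filter of 10 peaks and the floor of 3 then place it near 2-fold higher or above in advance. The DEAD and DEAH-box helicases, the family of DDX3X, had 29 vector, 144 wild-type and 61 G325E peaks, 2.80-fold higher in wild-type by share (1.87 to 4.32). Of 21 helicase genes with a wild-type peak, 11 had no vector peak (52.4%, against 36.9% of all genes), and of 8 measured, 5 were at least 2-fold higher, 0 lower, with a median 1.48 above that of all genes. DDX3X, the gene carried by the plasmid, supplied 32 of the 144 wild-type peaks, and the list was not measured without it. The 5 higher genes include DDX3X and DDX49, both at 0 in vector. Beside DDX3X stood DDX39A, an mRNA export and splicing factor (4 and 15), DDX21, a nucleolar helicase (2 and 14), DDX49 (0 and 11), DDX24 (3 and 10), DDX23 (1 and 9), DHX8 (0 and 8) and DDX27 (0 and 8). DDX5 and DDX17, splicing and transcription cofactors, had 4 and 6, and 4 and 4.

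Lists for DNA replication, nuclear transport and ribosome assembly also had summed ratios above 1. The replication list had 49 vector and 164 wild-type peaks, a ratio of 1.89 (1.36 to 2.65). Of its 22 genes in wild-type, 11 had no vector peak (50%, beside 36.9% of all genes). Of 6 measured, 2 were at least 2-fold higher and 0 lower, beside 13.0% and 16.7% of all genes. TOP2A, which untangles DNA, had 0 and 16, POLD1, the catalytic subunit of polymerase delta, 0 and 13, MCM2 and MCM4, subunits of the replicative helicase, 0 and 5 each. CDT1, which loads that helicase, had 18 and 35, and FEN1, a flap nuclease, 12 and 11. Nuclear import and export factors had 44 and 123 peaks, a ratio of 1.57 (1.11 to 2.28). Of 17 genes in wild-type, 9 had no vector peak (52.9%, beside 36.9% of all genes). Among these were XPO1, the main exportin (0 and 10), and NUP62 (0 and 11). Of 8 measured, 1 was at least 2-fold higher and 0 lower, beside 13.0% and 16.7% of all genes, while 7 lay above the all-gene median. Nucleolar ribosome biogenesis factors had 123 and 299 peaks, a ratio of 1.37 (1.11 to 1.70). Of 33 genes 15 had no vector peak (45.5%, beside 36.9% of all genes), and of 15 measured, 4 were higher and 2 lower, beside 13.0% and 16.7% of all genes. NCL had 2 and 13, but NPM1 had 7 and 5 and FBL 8 and 6. The list of very large proteins, which FASN and SRRM2 lead, had 38 and 187 peaks, a ratio of 2.77 (1.95 to 4.04). Sterol and fatty acid genes had 41 and 124, a ratio of 1.70 (1.19 to 2.49), and FASN supplied 45 of the 124.

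The small, heavily translated gene families lay on the other side. Large-subunit ribosomal proteins had 297 vector, 318 wild-type and 236 G325E peaks, a ratio of 0.60 (0.51 to 0.71), and small-subunit ones 192, 213 and 151, a ratio of 0.63 (0.51 to 0.76). Of 28 measured large-subunit genes 0 were at least 2-fold higher and 9 lower, of 17 small-subunit genes 1 higher and 5 lower, beside 13.0% and 16.7% of all genes, and both medians were 0.42 below that of all genes. RPL8 had 22 and 19 peaks, RPL6 17 and 15, RPS6 16 and 13, and RPS19, the exception, 5 and 20. Of 74 ribosomal protein genes in the wild-type list, 4 lacked a vector peak, beside 36.9% of all genes. Replication-dependent histones had 237, 249 and 259 peaks, a ratio of 0.59 (0.49 to 0.71), and all 54 genes with a peak were in both lists. Several of them are near-identical copies, so single histone genes are uncertain. Nuclear-encoded respiratory chain subunits had 138 and 165 peaks, a ratio of 0.67 (0.53 to 0.85). Elongation and termination factors had 96 and 116, a ratio of 0.68 (0.51 to 0.90), of which EEF2 gave 41 and 34, but their median was 0.00 above that of all genes.

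Before scaling, the large-subunit proteins had 1.07 wild-type peaks for each vector peak, the small-subunit ones 1.11 and the replication-dependent histones 1.05, so their lower ratios are relative to a longer list. Set to the median gene of both lists, which shifts every log2 ratio up by 0.51, their medians were still negative at −0.32.

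Translation initiation factors, the partners of DDX3X, gave no shared direction. The list had 134 vector, 211 wild-type and 88 G325E peaks, a ratio of 0.89 (0.71 to 1.11), and of 15 measured genes 2 were at least 2-fold higher and 4 lower, beside 13.0% and 16.7% of all genes, with a median 0.05 below that of all genes. EIF3A, the largest subunit of eIF3, had 8 and 26 peaks, EIF3B 2 and 16, and EIF1, which guards start codon choice, 0 and 15. EIF4G1, the scaffold of the cap-binding complex, had 18 and 20, EIF5A 20 and 24, and EIF3G 14 and 12. The 25 listed stress response genes controlled by upstream reading frames had 51 and 65 peaks, a ratio of 0.72 (0.49 to 1.06). Of these 25, 9 had a wild-type peak. Of 5 measured, 0 were at least 2-fold higher and 2 lower, beside 13.0% and 16.7% of all genes. Their median was 0.42 below that of all genes. SESN2 had 13 and 9 and MDM2 11 and 9, while ATF4, the regulator of the integrated stress response, had 7 and 9, and DDIT3 8 and 8. Genes of the Wnt pathway and other growth genes tied to DDX3X had 72 and 97, a ratio of 0.76 (0.55 to 1.04), including the receptor FZD1 (15 and 10) and GSK3B (6 and 9). Stress granule RNA-binding proteins had 101 and 192, a ratio of 1.07 (0.84 to 1.38), with SERBP1 at 12 and 21 and YBX1 at 11 and 12.

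**Figure D3:**
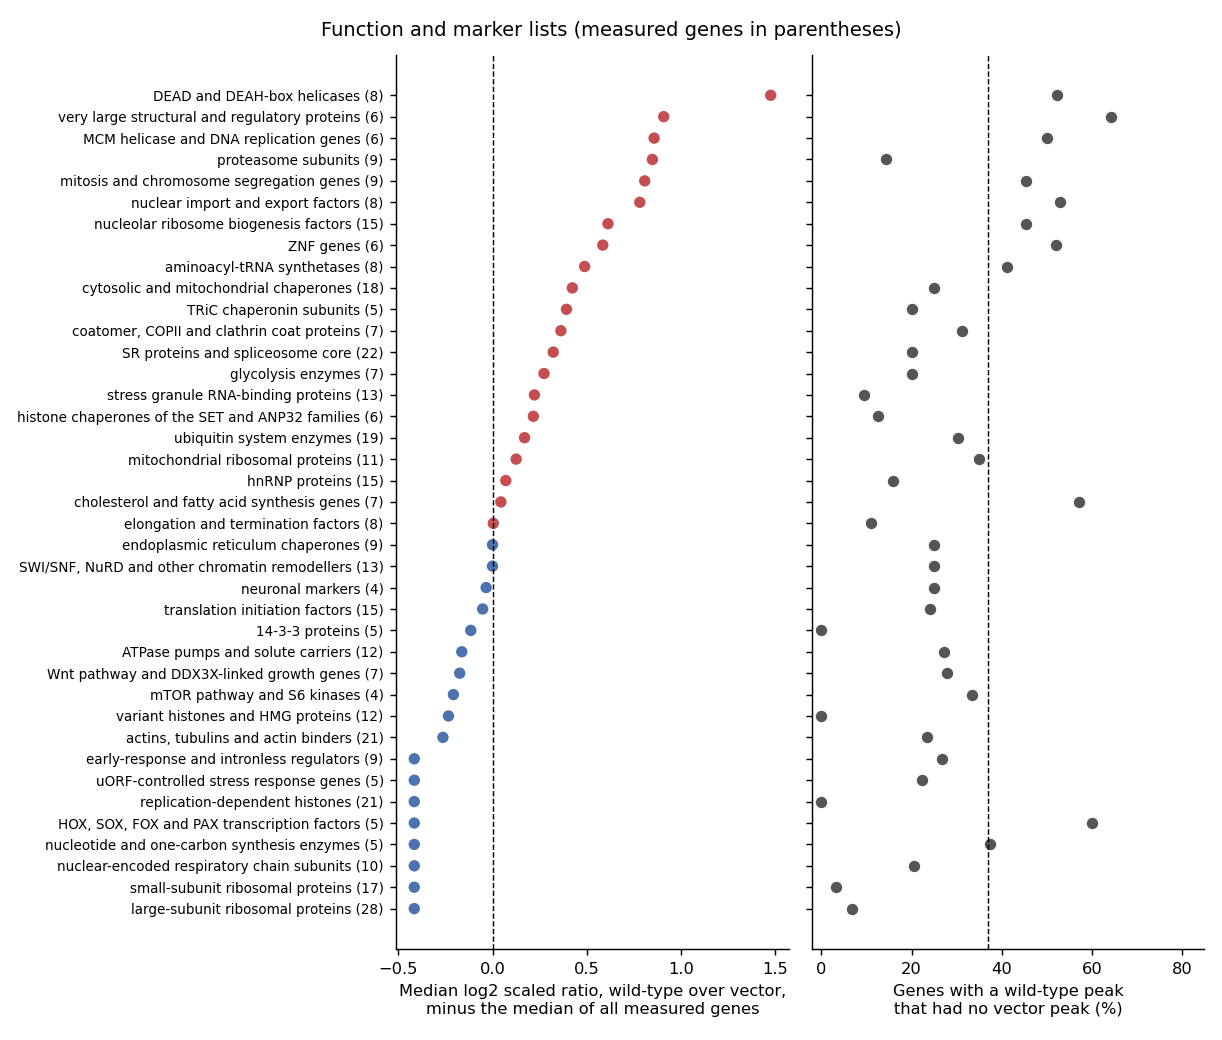
Each row is a function or marker list with at least 4 measured genes (number in parentheses); the left panel gives the list's median log2 scaled ratio minus that of all measured genes, and the right panel the share of its genes in the wild-type list that had no vector peak, with the all-gene value (36.9%) dashed. DEAD and DEAH-box helicases, DDX3X included, lie farthest right at 1.48 and the ribosomal proteins and replication-dependent histones at the left end, where 8 lists tie at −0.42.

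Within genes of both lists, a peak without a counterpart was more often followed by another such peak than a shared peak was. Of 14197 wild-type peaks on these 2001 genes, 5905 (41.6%, 40.8 to 42.4) overlapped no vector peak and are called gained. Of 10858 vector peaks, 2243 (20.7%, 19.9 to 21.4) overlapped no wild-type peak and are called lost. On the same genes the list with more peaks leaves more of them unmatched, so the gained and lost shares are not on an equal footing. Gained peaks were on 1497 genes, lost peaks on 1094, and 892 genes had both. The peak that followed a gained peak within a gene was itself gained in 64.3% of cases (63.0 to 65.6), and the peak after a shared one in 26.5% (25.4 to 27.5). For lost peaks these shares were 40.3% (38.1 to 42.6) and 15.4% (14.5 to 16.2), so most lost peaks were not followed by another lost one. These shares are pooled over genes with unlike gained and lost shares, which alone can part them. Runs of at least 10 gained peaks were found in 59 genes, and runs of at least 10 lost peaks in 2. The longest was in SRRM2, with 45 gained peaks in a row, followed by MYH9 with 36 and PUF60 with 27.

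In some genes the vector peaks took up a short stretch of the coding sequence. In MYH9 the 7 coding peaks of vector lay between 90.5% and 96.6% of the coding sequence, while the 38 of wild-type began at 31.6%. In SRRM2 the 4 coding peaks of vector lay between 7.57% and 9.28%, and the 49 of wild-type spread from there to 97.4%. The other vector peaks of SRRM2 were 1 in an intron and 4 in the 3′ UTR or TTS classes. In MAP4, a gene named for its large ratio, the 2 vector peaks lay at 79.1% and 79.9% and met a wild-type peak each. Its wild-type peaks ran from 14.2% to 92.6%. Vector numbers were skipped beside SRRM2 (3) and MAP4 (1) but not beside MYH9 (0). By contrast, TCOF1, a nucleolar factor with 26 and 53 peaks, was covered from 4.43% to 96.6% in vector and from 3.81% to 96.6% in wild-type, and EEF2 and TACC3 were covered along most of their length in both lists.

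**Figure D4:**
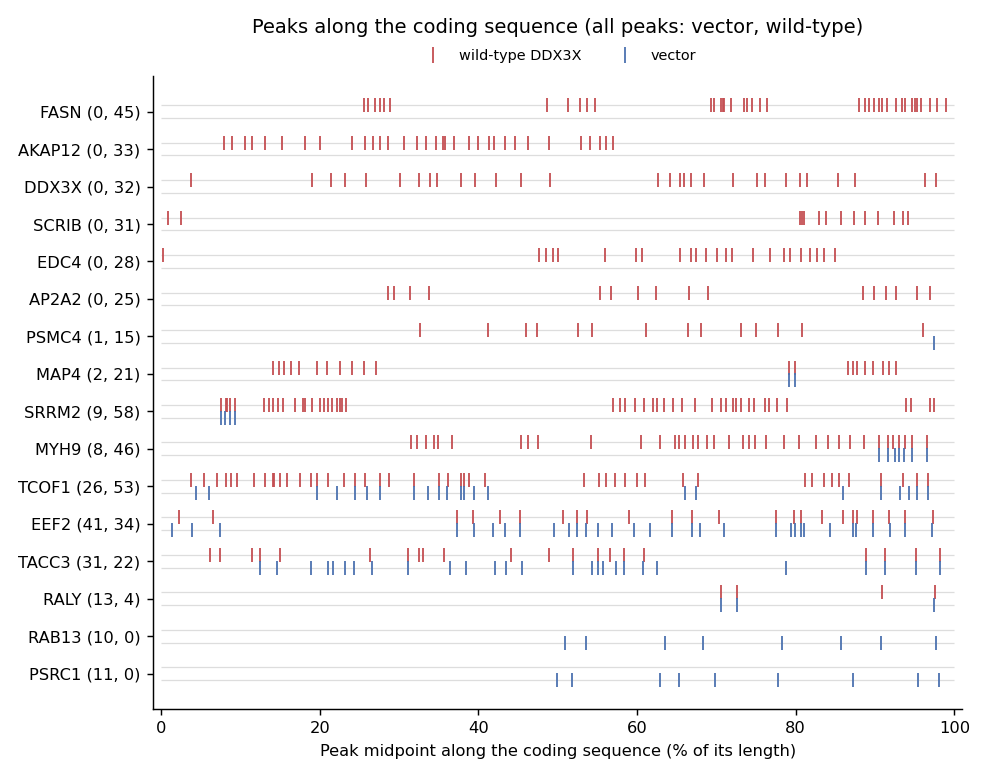
Midpoints of coding peaks (ticks) are placed along the coding sequence of 16 genes, as a percentage of its length, with wild-type DDX3X above and vector below; numbers in parentheses are all peaks of the gene in vector and in wild-type. Vector ticks are absent from the top 6 genes, confined to a short stretch in MAP4, SRRM2 and MYH9, and interleaved with wild-type ticks in TCOF1, EEF2 and TACC3.

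Of 854 genes with at least 5 peaks in each list, 7 had no overlap at all between the lists, and in most of them the lists covered different exons. SESN2, a stress-induced regulator of mTOR signalling, had 13 vector peaks, 8 in the 5′ UTR and the rest in exon 1 and the intron after it, with coding peaks from codon 10 to codon 24. Its 9 wild-type peaks included 8 in exons 4 to 6, from codon 155 to codon 301. KDM6B, a histone demethylase, had 7 vector peaks in exons 8 to 10 (codons 186 to 342) and 6 wild-type peaks in exon 11 (codons 713 to 1008). LAMC1, a laminin chain, had 6 vector peaks around exon 1 and 9 wild-type peaks in exons 23 to 26, and ZNF598, which senses collided ribosomes, had 6 of which 3 were at promoter-TSS and 1 in exon 2, and 18 of which 16 lay in exons 8 to 14. SEPHS1 had its 4 coding vector peaks in exon 9 and its 5 wild-type peaks at the start. In UBTF, which is none of these 7, 11 of 17 vector peaks lay in intron 1, and 22 of 30 wild-type peaks in exons. Its scaled ratio was 0.99.

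Regions differed in how often their peaks were shared. Gained peaks made up 36.5% (35.4 to 37.6) of wild-type peaks in exons, 43.2% (41.4 to 44.9) at promoter-TSS, 68.3% (66.0 to 70.5) in introns and 66.5% (59.9 to 72.6) in 3′ UTRs. Lost peaks made up 11.9% of vector peaks in exons, 26.6% (24.9 to 28.3) at promoter-TSS, 51.5% (48.5 to 54.5) in introns and 43.3% (35.2 to 51.7) in 3′ UTRs. So a vector peak in an exon was matched more often than one elsewhere. Within exons, the gained share was 40.4% (39.1 to 41.8) in internal exons and lower at the ends, 30.8% (27.5 to 34.3) in exon 1 and 26.7% (24.2 to 29.3) in the last exon. Gained peaks were also shorter, with a median of 23 bp against 39 bp for shared ones, and lost peaks had 22 bp against 35 bp. A longer peak meets a 1 bp overlap more readily, and the part of this definition in the lengths was not tested. On the strand opposite to the gene lay 20.4% of gained and 14.5% of shared wild-type peaks, and 26.3% of lost and 14.7% of shared vector peaks.

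**Figure D5:**
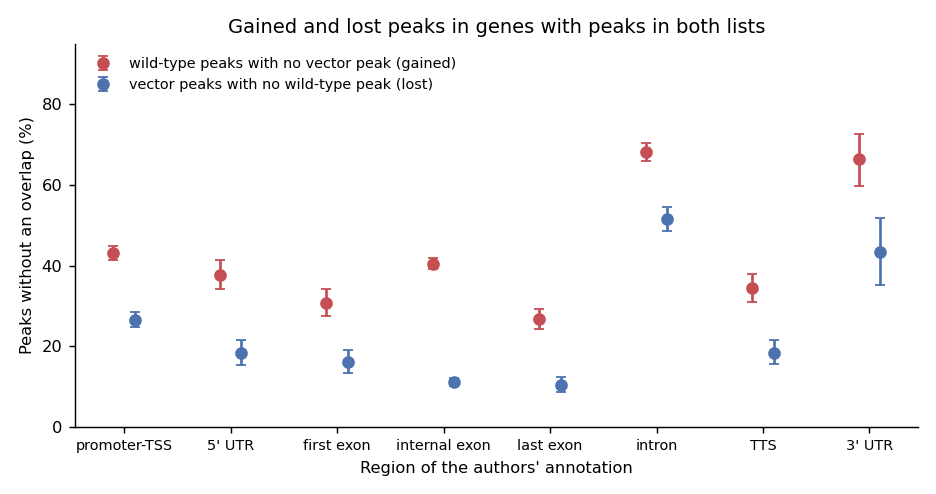
For genes with peaks in both lists, points give the share of wild-type peaks that met no vector peak (red) and of vector peaks that met no wild-type peak (blue) in each region of the authors' annotation, with Wilson 95% intervals. Introns (68.3% and 51.5%) and 3′ UTRs (66.5% and 43.3%) lie highest of the 8 regions plotted, and the last exon lowest (26.7% and 10.3%).

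Over whole lists the regions moved little. Exons held 49.5% of vector peaks (48.5 to 50.4) and 51.6% of wild-type peaks (50.9 to 52.3), promoter-TSS 23.0% (22.2 to 23.8) and 21.1% (20.6 to 21.7), introns 9.89% (9.36 to 10.5) and 11.1% (10.7 to 11.6), and 5′ UTRs 5.05% and 5.16%. When the 854 genes with at least 5 peaks in each list were weighted equally, exons were 1.83 points lower in wild-type and promoter-TSS 0.38 points higher, so the exon and promoter-TSS differences of the whole lists reversed. On genes of wild-type alone exons held 53.9% (52.6 to 55.2) of peaks, and on genes of both lists 50.7% (49.8 to 51.5) of wild-type peaks.

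Along the coding sequence, genes of wild-type alone had 29.1% (27.6 to 30.7) of their peaks in the last 25% of the sequence, against 26.6% (25.7 to 27.6) of wild-type peaks on shared genes. The middle 50% held 44.1% (42.4 to 45.8) and 47.1% (46.0 to 48.2), and the first 25% held 26.8% and 26.3%, where the intervals overlapped. Peaks centred in codons 1 to 15 made up 8.46% (7.81 to 9.15) of coding peaks of shared genes in vector and 7.17% (6.64 to 7.74) in wild-type, and 7.10% (6.28 to 8.01) on genes of wild-type alone. Among the 203 genes with at least 10 peaks in each list, the share of peaks at promoter-TSS or in the 5′ UTR was higher in wild-type for 79, lower for 57 and equal for 67, with a median change of 0 points.

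Single genes moved much further. In JUN, an immediate-early transcription factor, 2 of 15 vector peaks and 12 of 23 wild-type peaks lay in these front regions (13.3% and 52.2%). In SET, a histone chaperone and phosphatase inhibitor, 1 of 10 and 7 of 18 did, in MAF 1 of 10 and 5 of 13, in HNRNPD 3 of 16 and 8 of 17, in SLIT2 2 of 11 and 7 of 16, and in MYC 0 of 18 and 7 of 27. In the other direction, MTA2, a subunit of the NuRD complex, had 10 of 10 vector peaks and 10 of 27 wild-type peaks in front regions (100% and 37.0%), with 0 exon peaks in vector and 15 in wild-type. ARHGDIA had 10 of 21 and 1 of 16, REPIN1 9 of 10 and 8 of 14, MORF4L1 7 of 12 and 4 of 13, SLC16A1, a lactate transporter, 9 of 16 and 5 of 15, and IK 8 of 11 and 7 of 14. These 12 genes were picked as the extremes of 203, and skipped numbers lay beside all 12 in at least 1 list.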

How the data were processed

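Ribo-seq of HEK293T cells gave 1 peak list per construct. According to the submitters' processing notes and the study's methods, the authors trimmed reads with cutadapt, aligned them to hg19 with BWA 0.5.5, called peaks, reviewed them by hand and annotated them. The deposited values are peak positions (start, end and strand) and annotations, with no read count or signal, so depth is not in the files and precision is that of peak numbers. A gene at 0 was set to 3 peaks (0.0267% of the vector list, 0.0151% of the wild-type list). Host genes came from the RefSeq identifier in each peak's annotation. For 23999 peaks the files pair it with a gene name. A RefSeq table on GRCh38, used for names alone, named 6304 more, since the nearest gene of these rows can be another gene. The nearest gene was kept for 181 unmatched identifiers and 655 peaks without one. Ratios were scaled to list totals for genes with at least 10 peaks, with exact Clopper-Pearson 95% intervals. A peak was shared where it overlapped the other list by at least 1 bp. The 163 vector and 272 wild-type peaks listed without length were kept. Coding positions used GENCODE 44 models on GRCh37. Named genes were DDX3X, the 12 largest and smallest ratios, the 10 most covered genes of each list alone, the 4 most covered of each function list, the 6 largest moves of front share each way and the 5 most covered loci, of which 1 gene is not reported here. Members and lists were chosen with earlier results of these data known. Alternatives in scaling, thresholds, overlap, host assignment and strand were run, of which naming by the files alone and leaving out opposite-strand peaks were added after seeing the data. Python 3.11.15, numpy 2.4.6, pandas 2.3.3 and scipy 1.17.1 were used, and scripts were tested on simulated data.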

Additional observations from a re-analysis of the deposited data

How the results depend on the processing

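No paired analysis was possible because each construct had 1 library, and no replicate could be left out. Scaling by the median gene gave 247 higher, 42 lower and a median log2 ratio of 0.0931, a shift of 0.51. With at least 20 peaks, 23 genes were higher and 40 lower, and with at least 5, 194 were higher and 400 lower with a median of −0.24. In bases covered, 152 were higher and 89 lower. Peaks of at least 20 bp gave 90 higher genes, 139 lower and 15 of vector alone. The number of genes with a ratio changes with the thresholds on peak number and length and with merging. Counts under these settings are thus not on the base of the 154 and 198 of 1184. Merging peaks within 30 bp gave 55 higher, 99 lower, 280 in wild-type alone and 16 in vector alone. Leaving out genes beside a skipped number left 402 genes with a ratio, of which 58 were higher and 72 lower. It left 193 genes in wild-type alone and 10 in vector alone, counted on genes with at least 5 peaks and so on another base than the 402. Gained and lost shares were 44.7% and 23.2% when 50% of a peak had to overlap, 32.6% and 12.9% with a reach of 30 bp, 39.02% and 18.4% for peaks of at least 20 bp, and 42.8% and 22.4% on the same strand. With genes weighted equally, promoter-TSS (0.379 points) and exon (−1.83) differences reversed, and those of TTS (−0.0658), non-coding (−0.0511) and intergenic (−0.0384) peaks came near 0. The cause was not tested. Of the 25 genes named for their ratio, or for DDX3X, 22 were past 2-fold under every alternative that measured them, and 0 reversed. The others were SNORA65, MRPL21 and DDX23. SNORA65 had a log2 ratio of −0.69 by nearest gene and −0.68 by names in the files alone. In bases covered, MRPL21 had 0.97 and DDX23 0.60. All of the 25 but DDX3X were picked as extremes of this ratio. A threshold on peaks per gene leaves a gene's ratio as it was, and median scaling adds the same 0.51 to each log2 ratio. Peaks of at least 20 bp measured 12 of the 25, merging 8 and leaving out genes beside a skipped number 6. Of 41 function lists, 33 stayed on the same side of the median in bases. Skipped peak numbers, read depth that the files do not hold and 1 library per construct limit every comparison.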
